A study of Mus musculus with 12 samples.

Results

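The genes described here are 10 regulators and surface genes of the primitive endoderm, followed in mouse embryonic stem cells of both genotypes and both media of the study. They are the transcription factor genes Gata4, Gata6, Sox17, Sox7 and Foxa2, the growth factor receptor gene Pdgfra, the endocytic adaptor gene Dab2, and the endocytic receptor genes Cubn, Amn and Lrp2. They were chosen by symbol, ignoring case, and all 10 were found among the 22416 genes of the count table. Of these, 8 passed the filter on low counts and were tested. Sox7 and Foxa2 did not pass, and their levels are given.

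RNA-seq was made from 4 groups of 3 libraries. The KI cells were homozygous for eIF2α A/A, an allele in which the regulatory phosphorylation site of this translation initiation factor is changed to alanine, and the WT cells were eIF2α +/+. KI LIF and WT LIF cells were kept for 6 days with leukaemia inhibitory factor (LIF) alone, and KI LIF/2i and WT LIF/2i cells for 6 days with LIF, the MEK inhibitor PD0325901 and the GSK3 inhibitor CHIR99021 (2i). All 4 groups shared LIF, a medium with KnockOut Serum Replacement, a cycloheximide wash before lysis, and RNA taken from the cleared lysate and depleted of ribosomal RNA. The question of the series is how eIF2α phosphorylation acts on naive pluripotency. The labels name neither the cell lines nor how many lines or clones stand for each genotype, and they do not say that replicates were separate cultures. The p-values therefore measure the spread of these samples alone, and that spread may be technical.

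Primitive endoderm is the extraembryonic layer that separates from the epiblast in the blastocyst and later forms visceral and parietal endoderm. FGF signalling through MEK and ERK favours it, Gata6 and Nanog oppose each other in the choice between the lineages, and Gata4, Sox17 and Sox7 act after Gata6. Visceral endoderm takes up maternal nutrients by endocytosis, in which cubilin (Cubn), a receptor with no membrane anchor of its own, is carried by amnionless (Amn) and works beside megalin (Lrp2), while Dab2 links megalin to clathrin. In bulk RNA, fewer cells of a type and less RNA per cell cannot be told apart.

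Cubn and Lrp2 were the members called between media, and Amn encodes the partner of cubilin, so the stretches just upstream of these 3 genes are shown. They are RefSeq promoter sequences on GRCm38.p6, given 5′ to 3′ in the direction of the gene and ending before the first annotated exon base. The stretch of Cubn lies on the minus strand at chr2:13491877-13492126, that of Lrp2 on the minus strand at chr2:69586066-69586279, and that of Amn on the plus strand at chr12:111270846-111271094.
Cubn promoter: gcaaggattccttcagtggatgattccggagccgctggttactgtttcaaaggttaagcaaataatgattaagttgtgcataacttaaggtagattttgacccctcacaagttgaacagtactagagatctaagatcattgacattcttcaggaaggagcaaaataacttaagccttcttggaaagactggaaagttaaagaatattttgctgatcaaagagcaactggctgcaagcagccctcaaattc
Lrp2 promoter: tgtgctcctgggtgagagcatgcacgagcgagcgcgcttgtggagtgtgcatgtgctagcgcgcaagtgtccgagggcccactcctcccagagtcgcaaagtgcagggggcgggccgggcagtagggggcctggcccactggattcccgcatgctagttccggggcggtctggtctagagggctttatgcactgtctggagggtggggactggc
Amn promoter: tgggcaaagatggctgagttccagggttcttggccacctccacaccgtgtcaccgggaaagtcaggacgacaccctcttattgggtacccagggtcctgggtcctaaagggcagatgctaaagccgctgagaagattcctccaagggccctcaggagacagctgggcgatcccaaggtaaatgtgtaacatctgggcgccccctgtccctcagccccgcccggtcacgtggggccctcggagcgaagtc
No letters are in capitals because none of the 3 motifs searched was found there. The motifs were AGATAA for GATA factors (TTATCT on the other strand), ACAAT for SOX factors (ATTGT) and TGTTTAC for FOXA factors (GTAAACA), none overlapping another, over the 250 bases before each start. Of 32851 promoters of that length, 10.0% held the GATA letters, 27.7% the SOX letters and 3.2% the FOXA letters. The stretches differed in composition, with 39.6% G and C and 2 CpG in Cubn, 65.9% and 13 CpG in Lrp2, and 61.0% and 11 CpG in Amn. RefSeq promoters were matched for 6 of the 10 genes, in 9 windows, and the single match among them was of GATA letters, 183 bases before a start of Foxa2. Only these exact letters were searched, so other forms of the sites, such as TGATAA in a window of Dab2, were not counted.

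Library totals ranged from 2307219 to 9713857 counts, and 3 counts, taken as the floor of a library, were worth 0.312 to 1.27 CPM (counts scaled to the library total, adjusted by TMM). All 8 embryonic stem cell markers were present in every library, at 13.4 to 1166 CPM. In WT LIF the counts of replicates 1 and 3 differed by less than sampling noise (chi-square per degree of freedom 0.858, against 2.61 to 40.2 for the other replicate pairs) and were counted as 1 sample, so n is 2 in WT LIF. WT LIF/2i replicate 3 stood apart: it was the highest of its group for 8 of the 10 genes, and its collagen IV gene Col4a1 was at 131 CPM, against 14 and 8.0 CPM in replicates 1 and 2. WT LIF replicate 2 was the highest of its group for 6 of the 10, and its 12 fibroblast markers summed to 793 CPM, against 159 and 156 CPM in replicates 1 and 3. KI LIF/2i replicate 1 also stood apart. Its pairs with replicates 2 and 3 gave the highest chi-square values, 32.2 and 40.2, where replicates 2 and 3 together gave 26.1. Where libraries differ beyond sampling noise these values rise with depth, and KI LIF/2i replicate 1 was the deepest library, at 9713857 counts. Its fibroblast markers summed to 482 CPM, against 128 and 128 CPM in replicates 2 and 3. Its 5 neural markers summed to 36.0 CPM, against 119 and 108 CPM. Transcripts of 4 Y-linked genes summed to between 1.5 and 42.1 CPM in KI libraries and between 46.3 and 279 CPM in WT libraries. The values spread widely within each genotype, and the part of this difference between libraries in any KI to WT value was not tested.

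Cells in LIF held more Cubn and Lrp2 RNA than cells in LIF/2i, in both genotypes. In KI cells both genes rose, Cubn by 3.53 ± 0.92 and Lrp2 by 1.94 ± 0.48 on the log2 scale (SE), and they were the 2 of 8 members called, where 9.05% of the 13229 genes tested were called in either direction and 4.05% were called higher (edgeR quasi-likelihood test, Benjamini-Hochberg adjusted p under 0.05). In WT cells these 2 of 8 members also rose, Cubn by 4.85 ± 0.72 and Lrp2 by 3.39 ± 0.53, where 13% of all genes were called and 6.3% were called higher. With KI replicate numbers as a block the Lrp2 call in KI cells was lost (adjusted p = 0.171), which left 1 of 8. With no count filter both KI calls were lost. The KI calls were kept in 14 of 20 alternatives for Cubn and 15 of 20 for Lrp2, against 19 of 19 for each in WT cells. No member was called lower in LIF in either genotype, where 5% of all genes were called lower in KI cells and 6.65% in WT cells. The median log2 difference of the 8 was 1.04 in KI cells and 1.49 in WT cells, where that of all genes was -0.03 in KI cells and 0.01 in WT cells.

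Between genotypes no member was called. In LIF all 8 tested members were lower in KI than in WT by point estimate, with a median log2 difference of -1.53 where that of all genes was 0, and 50.0% of all genes were below 0. The members were chosen with earlier results of these data known. They were measured in the same samples, so a common direction, here and between media, is a description and not 8 separate results. None of the 8 passed the test, where 0.144% of all genes did, 0.0151% higher and 0.129% lower. The closest was Cubn, with an edgeR adjusted p of 0.0536, and 1418 genes had an unadjusted p under 0.05. In LIF/2i 6 of 8 were lower in KI, with a median of -0.58 where that of all genes was 0.02, and again 0 of 8 passed the test, where 2.21% of all genes did and 2717 genes had an unadjusted p under 0.05. DESeq2 called Cubn and Pdgfra lower in KI in LIF, and Cubn lower in KI in LIF/2i. In LIF, 8 of 9 tested trophectoderm markers were also below 0, with a median log2 difference of -1.06 and 0 called, and the list summed to between 272 and 313 CPM in KI LIF, against 444 to 585 CPM in WT LIF. Their part in the genotype differences of the members was not tested.

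The change between media was not shown to differ between genotypes for any member. The interaction called 0 of 8 members and 0% of all genes with edgeR, where 791 genes were under 0.05 before adjustment, and DESeq2 gave calls to 0 members and 22 genes. The medium comparisons share no samples with each other, but each shares its libraries with a genotype comparison, so the values of a gene in the 4 comparisons are given side by side and not as independent results.

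**Figure D1:**
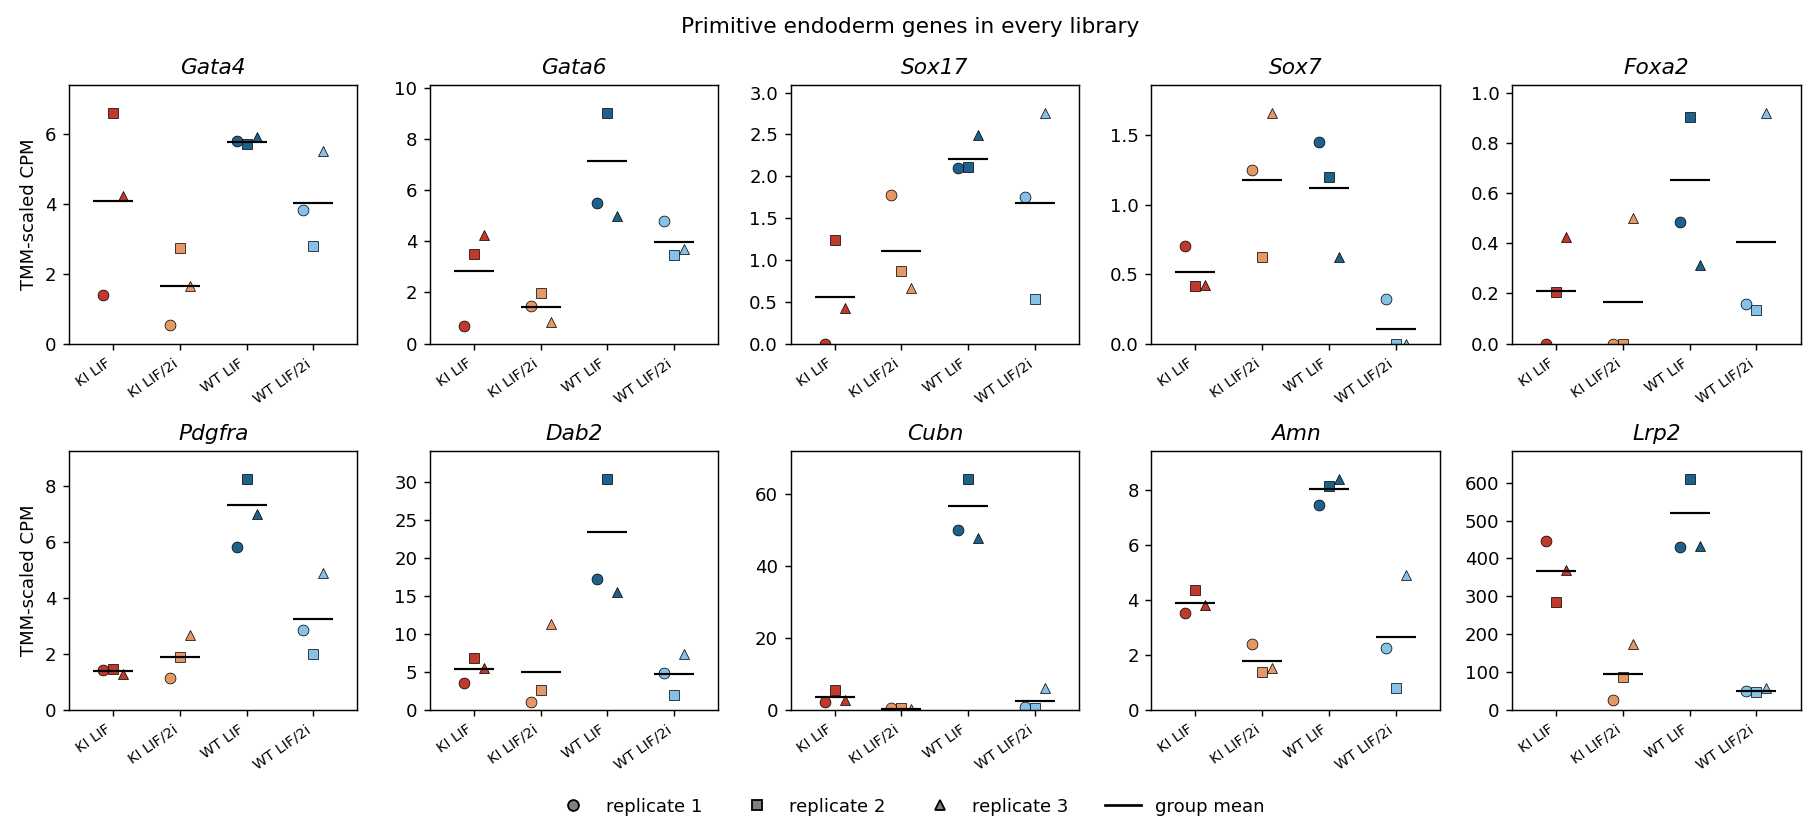
Level of each of the 10 genes in every library, in TMM-scaled CPM from 0, with 1 panel per gene and the groups KI LIF, KI LIF/2i, WT LIF and WT LIF/2i from left to right. Symbols mark replicates 1 to 3 and lines mark group means, in which WT LIF replicates 1 and 3 count as 1 sample. The WT LIF libraries stand above all others for Cubn, at 47.8 to 64.4 CPM, and Lrp2 is highest in the KI LIF and WT LIF groups.

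Gata6 encodes the first regulator of the lineage. It was at 0.704, 3.52 and 4.24 CPM in KI LIF and 1.46, 2.00 and 0.832 CPM in KI LIF/2i, against 5.50, 9.03 and 4.98 CPM in WT LIF and 4.78, 3.47 and 3.68 CPM in WT LIF/2i. Every KI library was below every WT library of the same medium. KI to WT, the log2 difference was -1.33 ± 0.56 in LIF (adjusted p = 0.424) and -1.43 ± 0.52 in LIF/2i (adjusted p = 0.153), and neither passed the test. Between media, LIF to LIF/2i, it was 0.95 ± 0.56 in KI cells (adjusted p = 0.337) and 0.85 ± 0.53 in WT cells (adjusted p = 0.335).

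Gata4 encodes the GATA factor that follows Gata6. It was at 1.41, 6.63 and 4.24 CPM in KI LIF and 0.521, 2.74 and 1.66 CPM in KI LIF/2i, against 5.82, 5.72 and 5.91 CPM in WT LIF and 3.82, 2.80 and 5.52 CPM in WT LIF/2i. The genotypes overlapped in LIF, with a log2 difference of -0.45 ± 0.63 (adjusted p = 0.858), and did not overlap in LIF/2i, with -1.26 ± 0.60 (adjusted p = 0.259). The 3 KI LIF libraries held between 4 and 32 counts. Their mean was 4.09 ± 2.61 CPM (SD, n = 3), against 5.79 ± 0.107 CPM in WT LIF (SD, n = 2). The means lay within 1 SD of KI LIF of each other, but not within 1 SD of WT LIF.

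Sox17 encodes an HMG box factor of endoderm. It was at 0, 1.24 and 0.424 CPM in KI LIF and 1.77, 0.873 and 0.666 CPM in KI LIF/2i, against 2.10, 2.11 and 2.49 CPM in WT LIF and 1.75, 0.533 and 2.76 CPM in WT LIF/2i. KI LIF lay below WT LIF in every library, at 0, 6 and 1 counts against 13, 14 and 16, with a log2 difference of -1.72 ± 0.87 that did not pass the test (adjusted p = 0.519). In LIF/2i the genotypes overlapped, with a log2 difference of -0.43 ± 0.71.

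Sox7, which encodes a relative of Sox17, was close to the floor. It had 2, 2 and 1 counts in KI LIF and 12, 5 and 10 counts in KI LIF/2i, against 9, 8 and 4 counts in WT LIF and 2, 0 and 0 counts in WT LIF/2i. Sox7 was the member whose KI LIF/2i libraries were all above WT LIF/2i, at 1.25, 0.624 and 1.66 CPM against 0.319, 0 and 0 CPM, where 11.2% of all genes did not overlap in that direction. Without the count filter, edgeR gave this difference an adjusted p of 0.0882 (unadjusted 0.00299).

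Foxa2, which encodes a forkhead factor of endoderm, had 0, 1 and 1 counts in KI LIF and 0, 0 and 3 counts in KI LIF/2i, against 3, 6 and 2 counts in WT LIF and 1, 1 and 3 counts in WT LIF/2i. A single library, WT LIF replicate 2, was above the floor of 3 counts. No difference of Foxa2 was detectable at this depth.

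Pdgfra encodes the PDGF receptor that marks primitive endoderm. It was at 1.41, 1.45 and 1.27 CPM in KI LIF and 1.15, 1.87 and 2.66 CPM in KI LIF/2i, against 5.82, 8.28 and 7.0 CPM in WT LIF and 2.87, 2.00 and 4.91 CPM in WT LIF/2i. In LIF the groups did not overlap, and the KI mean of 1.38 ± 0.0927 CPM (SD, n = 3) was 0.187 times the WT mean of 7.34 ± 1.32 CPM (SD, n = 2). The log2 difference of -2.40 ± 0.51 ranked 66 from the lowest of 13229 genes and had an adjusted p of 0.113. It passed the test in 3 of 19 alternatives. These were all 12 libraries counted separately (adjusted p = 0.0303), the replicate block over them (0.0331) and DESeq2 (0.0229). It did not pass without KI LIF replicate 1 (0.128), 2 (0.349) or 3 (0.411). In LIF/2i the difference was -0.73 ± 0.44 (adjusted p = 0.369). Between media, LIF to LIF/2i, Pdgfra differed by -0.42 ± 0.51 in KI cells and by 1.24 ± 0.45 in WT cells (adjusted p = 0.0915). The difference in WT cells passed in 3 of 19 alternatives (0.0418 without WT LIF/2i replicate 3). The interaction of -1.66 ± 0.68 had an adjusted p of 0.815 (unadjusted 0.0306).

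**Figure D2:**
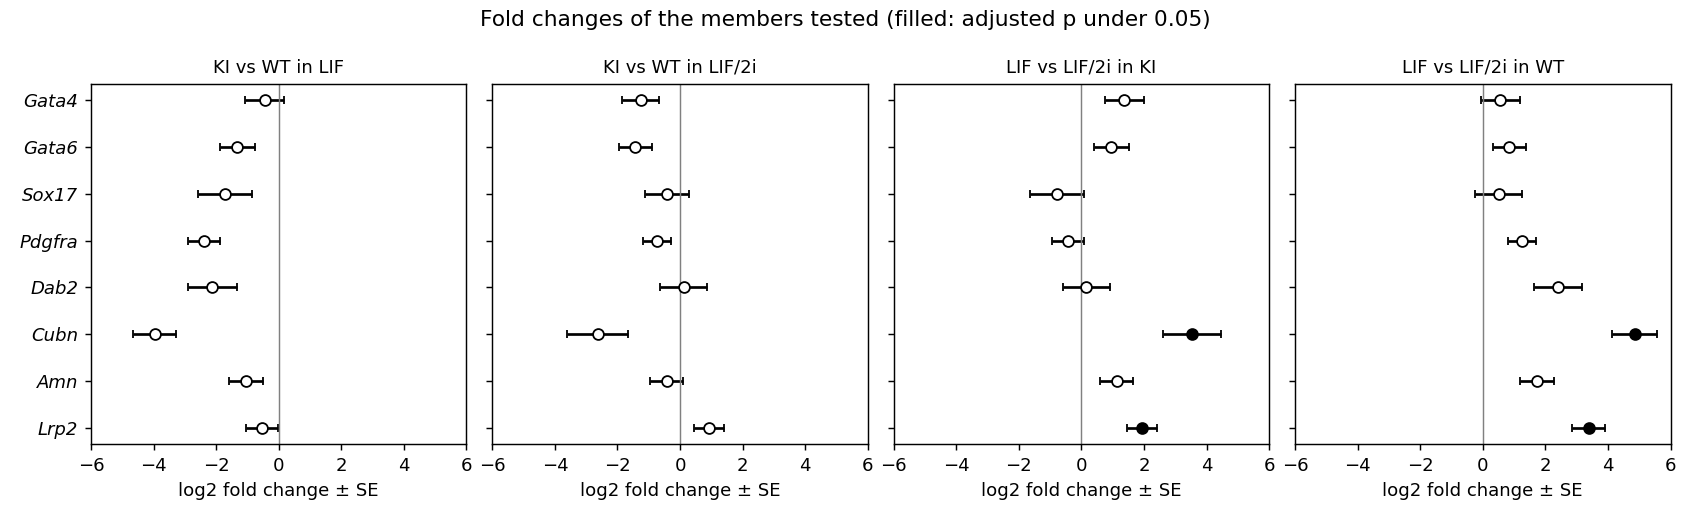
Log2 fold change ± SE of the 8 tested members in the 4 comparisons, with 1 panel per comparison, a line at 0, and filled points where the edgeR adjusted p was under 0.05. All 8 points lie below 0 for KI to WT in LIF and none is filled, and the filled points are Cubn and Lrp2 in the panels that compare LIF with LIF/2i.

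Dab2 encodes the clathrin adaptor that binds the tail of megalin. It was at 3.52, 6.83 and 5.51 CPM in KI LIF and 0.937, 2.62 and 11.3 CPM in KI LIF/2i, against 17.1, 30.4 and 15.4 CPM in WT LIF and 4.78, 1.87 and 7.36 CPM in WT LIF/2i. WT LIF lay above every other library, and KI LIF/2i replicate 3 stood far above the other KI LIF/2i libraries. Between media, LIF to LIF/2i, the log2 difference was 0.16 ± 0.76 in KI cells and 2.40 ± 0.78 in WT cells (adjusted p = 0.0631). KI to WT, it was -2.12 ± 0.79 in LIF (adjusted p = 0.354) and 0.12 ± 0.75 in LIF/2i (adjusted p = 0.948). When KI LIF/2i replicate 3 was left out, the genotype difference in LIF/2i was -1.33 (adjusted p = 0.344) and the medium difference in KI cells 1.61 (adjusted p = 0.174). The medium difference in WT cells passed the test in 5 of 19 alternatives. Among them were the fits without KI LIF/2i replicate 1 or 3 (adjusted p = 0.0166 and 0.0167), with 12 libraries counted separately (0.0384) and in DESeq2 (0.0239).

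Cubn, the cubilin gene, lies on chromosome 2 with a coding sequence of 10869 bases. It was at 2.11, 5.59 and 2.54 CPM in KI LIF and 0.312, 0.374 and 0.166 CPM in KI LIF/2i, against 50.0, 64.4 and 47.8 CPM in WT LIF and 0.637, 0.533 and 6.13 CPM in WT LIF/2i. These levels rest on 6, 27 and 6 counts in KI LIF and 3, 3 and 1 counts in KI LIF/2i, against 309, 428 and 307 counts in WT LIF and 4, 4 and 20 counts in WT LIF/2i. WT LIF held the most in every library, KI LIF was within the range of WT LIF/2i, and KI LIF/2i was at or under the floor of 3 counts.

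Between media, Cubn rose in LIF in KI cells, where it averaged 3.42 ± 1.90 CPM in LIF against 0.284 ± 0.107 CPM in LIF/2i (SD, n = 3 each), with a log2 difference of 3.53 ± 0.92 (adjusted p = 0.0340) that rests on 7 counts in LIF/2i. With KI replicate numbers as a block it was 3.43 (adjusted p = 0.00318). The call in KI cells was lost with no count filter (adjusted p = 0.0569), without KI LIF replicate 2 (0.199) or 3 (0.0705) and without KI LIF/2i replicate 1 (0.0724), 2 (0.0707) or 3 (0.0896). Cubn also rose in LIF in WT cells, where the mean was 56.6 ± 11.0 CPM (SD, n = 2) against 2.43 ± 3.20 CPM in WT LIF/2i (SD, n = 3), a ratio of 23.3 and a log2 difference of 4.85 ± 0.72 (adjusted p = 0.00193). WT LIF/2i replicate 3 gave 20 of the 28 counts of that group, and without it the log2 difference was 6.57 (adjusted p = 0.00022).

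Between genotypes in LIF, the KI mean of Cubn was 0.0603 times that of WT. The log2 difference of -3.96 ± 0.69 ranked 12 from the lowest of 13229 genes and missed the threshold (adjusted p = 0.0536). It passed in 6 of 19 alternatives. These were all 12 libraries counted separately (adjusted p = 0.0121), the replicate block over them (0.0135) and DESeq2 (0.000102). The others were the fits without KI LIF/2i replicate 1 (0.0246), WT LIF/2i replicate 2 (0.0435) or WT LIF/2i replicate 3 (0.00503). It did not pass without KI LIF replicate 1 (0.0911), 2 (0.150) or 3 (0.295). The fits over 12 libraries take WT LIF replicates 1 and 3 as separate samples. In LIF/2i the difference was -2.64 ± 0.97 (adjusted p = 0.156), and it was -0.93 (adjusted p = 0.539) when replicate 3 of WT LIF/2i was left out. The edgeR interaction for Cubn was -1.32 ± 1.40, so the medium difference in KI cells was not shown to differ from that in WT cells.

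Amn encodes amnionless, which carries cubilin to the cell surface, and it lies on chromosome 12, 32.4 Mb from Eif2s1, the gene that holds the knock-in allele. It was at 3.52, 4.35 and 3.82 CPM in KI LIF and 2.40, 1.37 and 1.5 CPM in KI LIF/2i, against 7.44, 8.13 and 8.41 CPM in WT LIF and 2.23, 0.800 and 4.91 CPM in WT LIF/2i. Each LIF group lay above the LIF/2i group of its genotype, and KI LIF lay below WT LIF. None of these differences passed the test. KI to WT, the log2 difference was -1.04 ± 0.55 in LIF (adjusted p = 0.538) and -0.43 ± 0.54 in LIF/2i (adjusted p = 0.680). Between media, LIF to LIF/2i, it was 1.13 ± 0.54 in KI cells (adjusted p = 0.231) and 1.73 ± 0.55 in WT cells (adjusted p = 0.0582). Without WT LIF/2i replicate 3 the WT medium difference was 2.43 (adjusted p = 0.0115), and without KI LIF/2i replicate 1 it was 1.74 (adjusted p = 0.0422). The WT medium difference passed in 6 of 19 alternatives.

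Lrp2, the megalin gene, was the most abundant member. It was at 448, 284 and 369 CPM in KI LIF and 26.0, 85.3 and 174 CPM in KI LIF/2i, against 429, 611 and 433 CPM in WT LIF and 48.6, 45.6 and 57.3 CPM in WT LIF/2i. Both LIF groups stood above both LIF/2i groups, and the KI LIF/2i libraries were spread far wider than the WT LIF/2i libraries.

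In KI cells Lrp2 averaged 367 ± 81.9 CPM in LIF against 95.3 ± 74.7 CPM in LIF/2i (SD, n = 3 each), a ratio of 3.85 and a log2 difference of 1.94 ± 0.48 (adjusted p = 0.0268). With KI replicate numbers as a block the log2 difference was 2.23 and the call was lost (adjusted p = 0.171). It was also lost with no count filter (adjusted p = 0.112), without KI LIF replicate 1 (0.0580) or 3 (0.0786) and without KI LIF/2i replicate 2 (0.0744). In WT cells Lrp2 averaged 521 ± 127 CPM in LIF (SD, n = 2) against 50.5 ± 6.10 CPM in LIF/2i (SD, n = 3), a ratio of 10.3 and a log2 difference of 3.39 ± 0.53 (adjusted p = 0.00250). Between genotypes Lrp2 differed by -0.52 ± 0.51 in LIF (adjusted p = 0.778) and by 0.93 ± 0.48 in LIF/2i (adjusted p = 0.294). The LIF/2i difference was 1.36 and passed the test (adjusted p = 0.0174) when KI LIF/2i replicate 1 was left out, and was 0.14 when replicate 3 was left out. The interaction for Lrp2 was -1.45 ± 0.70 (adjusted p = 0.840).

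**Figure D3:**
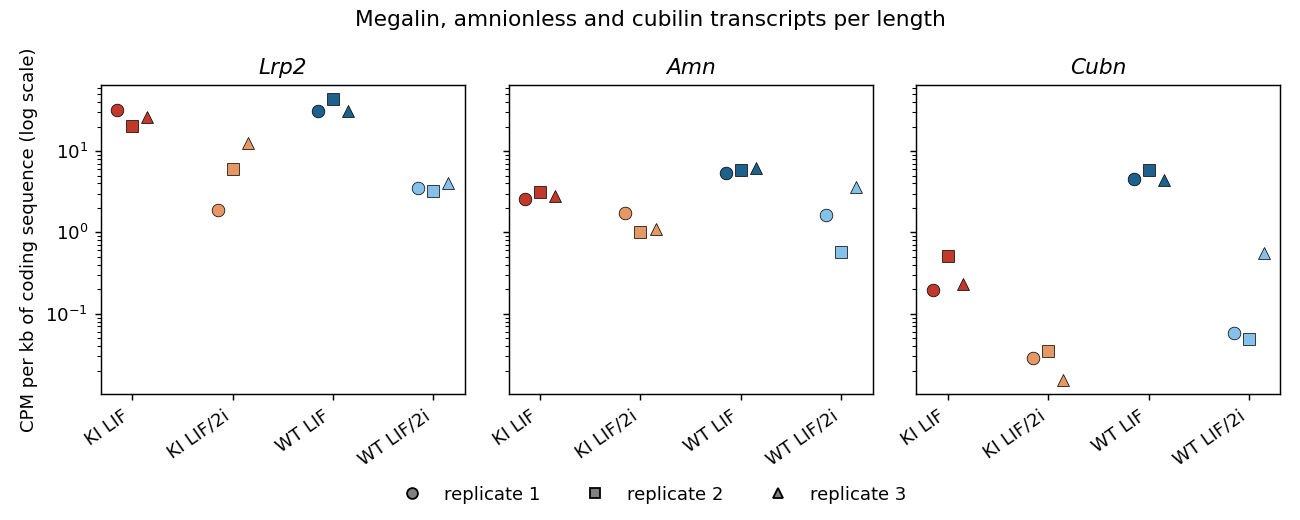
Lrp2, Amn and Cubn in every library per length, as CPM per kb of coding sequence on a log axis, with 1 panel per gene, the groups KI LIF, KI LIF/2i, WT LIF and WT LIF/2i from left to right and symbols for replicates 1 to 3. Lrp2 is the highest in each group, and Cubn is near Amn in the WT LIF libraries and far under it elsewhere.

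Levels of different genes were compared per length. Per kb of coding sequence, Lrp2 was the highest of the 10 genes in every group, with a mean of 26.2 CPM per kb in KI LIF and 6.81 in KI LIF/2i, against 37.3 in WT LIF and 3.61 in WT LIF/2i. Cubn was the ninth by mean in KI LIF, the last in KI LIF/2i, the fourth in WT LIF and the ninth in WT LIF/2i. In WT LIF the Cubn level per kb was 5.21 ± 1.01 and the Amn level 5.84 ± 0.104 (SD, n = 2), which did not differ beyond their spread, while in KI LIF they were 0.314 ± 0.174 and 2.84 ± 0.305 (SD, n = 3), which did not overlap.

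Cubn and Lrp2 also stood in different proportions. Within a library, the Cubn CPM was 0.472%, 1.97% and 0.690% of the Lrp2 CPM in KI LIF and 1.2%, 0.439% and 0.0954% in KI LIF/2i, against 11.6%, 10.5% and 11.0% in WT LIF and 1.31%, 1.17% and 10.7% in WT LIF/2i. All 3 WT LIF libraries and WT LIF/2i replicate 3 were above 10%, and the other 8 libraries were below 2%. The means in LIF were 1.04% ± 0.809 in KI (SD, n = 3) and 10.9% ± 0.569 in WT (SD, n = 2), with a two-sided exact permutation p of 0.2, the smallest that 3 samples against 2 can give.

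By non-overlap, 7 of the 10 members were lower in every KI LIF sample than in every WT LIF sample, all but Gata4, Foxa2 and Lrp2, where 15.2% of all genes tested did not overlap in that direction. Of the 8 tested members 6 were, since Sox7 was not tested. Counting the 12 libraries separately left 6 of the 10, without Sox7, and the share of all genes was not computed for that count. In LIF/2i Gata4, Gata6 and Cubn were lower in every KI sample, where 11.5% of all genes were. Cubn, Amn and Lrp2 were higher in every KI LIF sample than in every KI LIF/2i sample, where 13.6% of all genes were, and 8 of the 10 members, all but Sox17 and Foxa2, were higher in every WT LIF sample than in every WT LIF/2i sample, where 23.6% of all genes were. Of the 8 tested members 7 were higher in every WT LIF sample. No member was lower in every WT LIF sample, where 25.2% of all genes were. The members that passed the filter differed in how far they followed each other. Across the 11 samples, the log2 level of Cubn had a Pearson correlation of 0.930 with the mean of the other tested members, Dab2 0.839, Amn 0.820, Pdgfra 0.792, Gata4 0.746, Gata6 0.724, Sox17 0.492 and Lrp2 0.472, values that the common group differences and the depth of the libraries enter.

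Of 30 other genes of primitive, visceral and parietal endoderm, 23 were tested. KI to WT in LIF, 0 were higher and 1 was lower, where 0.0151% of all genes were called higher and 0.129% lower. The median log2 difference was -0.42. In LIF/2i none was called, where 2.21% of all genes were, with a median of -0.37. Between media, 2 were higher in LIF and 3 lower in KI cells, where 4.05% of all genes were called higher and 5% lower. In WT cells 6 were higher and 2 lower, where 6.3% of all genes were called higher and 6.65% lower. The medians were 0.20 and 0.43 in KI and WT cells. The gene lower in KI in LIF was Lama1, which encodes the laminin α chain of the early basement membrane. It was at 54.2, 44.1 and 50.5 CPM in KI LIF, against 174, 169 and 170 CPM in WT LIF, and its log2 difference was -1.79 ± 0.26 (adjusted p = 0.0222). The groups lay far apart, but the call was lost without KI LIF replicate 2 (adjusted p = 0.150) or 3 (0.161), WT LIF replicate 2 (0.177) or the averaged WT LIF sample (0.167). The genes higher in LIF in WT cells were Lama1, the laminin chain gene Lamb1, the collagen chaperone gene Serpinh1, the plasminogen activator gene Plat, the parathyroid hormone receptor gene Pth1r and the chloride channel gene Clic6. Lamb1 and Serpinh1 were also called higher in KI cells. The laminin chain gene Lamc1 and the nidogen gene Nid1 fell in LIF in both genotypes, and the nidogen gene Nid2 fell in KI cells. Without WT LIF replicate 2 the WT calls of Serpinh1 (adjusted p = 0.210), Plat (0.121), Pth1r (0.0706) and Clic6 (0.300) were lost, and that of Clic6 was lost in 6 other fits with a library or the averaged WT LIF sample left out (0.0511 to 0.126). The KI calls of Serpinh1 and Nid2 were lost without KI LIF replicate 2 (0.0977 and 0.0726) or 3 (0.103 and 0.0717), and that of Serpinh1 also without KI LIF/2i replicate 1 (0.0730) or 3 (0.0634) and with no filter (0.0592).

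Among 13 genes of FGF and PDGF signalling, 3 were called between media in KI cells, Fgfr2, Pdgfa and Pdgfc, and 3 in WT cells, Fgfr2, Pdgfc and Map2k1, where 9.05% of all genes were called in KI cells and 13% in WT cells. Fgfr2 encodes an FGF receptor. Fgfr2 was at 31.3, 25.9 and 28.4 CPM in KI LIF and 1.35, 7.98 and 12.1 CPM in KI LIF/2i, against 60.7, 75.4 and 52.0 CPM in WT LIF and 3.82, 2.93 and 9.81 CPM in WT LIF/2i. It rose in LIF by 2.02 ± 0.58 in KI cells (adjusted p = 0.0493) and by 3.69 ± 0.64 in WT cells (adjusted p = 0.00399). The KI call was lost with the replicate block (2.25, adjusted p = 0.0664) and was kept in 9 of 20 alternatives. Every LIF library was above every LIF/2i library for Fgfr2.

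Pdgfc, a ligand gene of the PDGF receptor, ran the other way. It was at 6.34, 6.42 and 11.0 CPM in KI LIF and 24.4, 32.2 and 60.7 CPM in KI LIF/2i, against 1.29, 3.01 and 2.49 CPM in WT LIF and 64.7, 39.5 and 20.2 CPM in WT LIF/2i. In LIF Pdgfc fell by 2.34 ± 0.47 on the log2 scale in KI cells (adjusted p = 0.0103) and fell by 4.06 ± 0.60 in WT cells (adjusted p = 0.00187). Pdgfa, another ligand gene, fell by 1.14 ± 0.25 in LIF in KI cells (adjusted p = 0.0145). Each of these KI calls was lost without KI LIF replicate 2, with adjusted p of 0.0542 for Pdgfc and 0.0573 for Pdgfa. The MEK gene Map2k1 fell by 0.63 in WT cells (adjusted p = 0.0312), a call lost without WT LIF replicate 2 (0.217), the averaged WT LIF sample (0.116) or WT LIF/2i replicate 1 (0.0765) or 3 (0.0720) and with library totals alone (0.0673). No gene of this list was called between genotypes, where 0.144% of all genes were in LIF and 2.21% in LIF/2i.

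**Figure D4:**
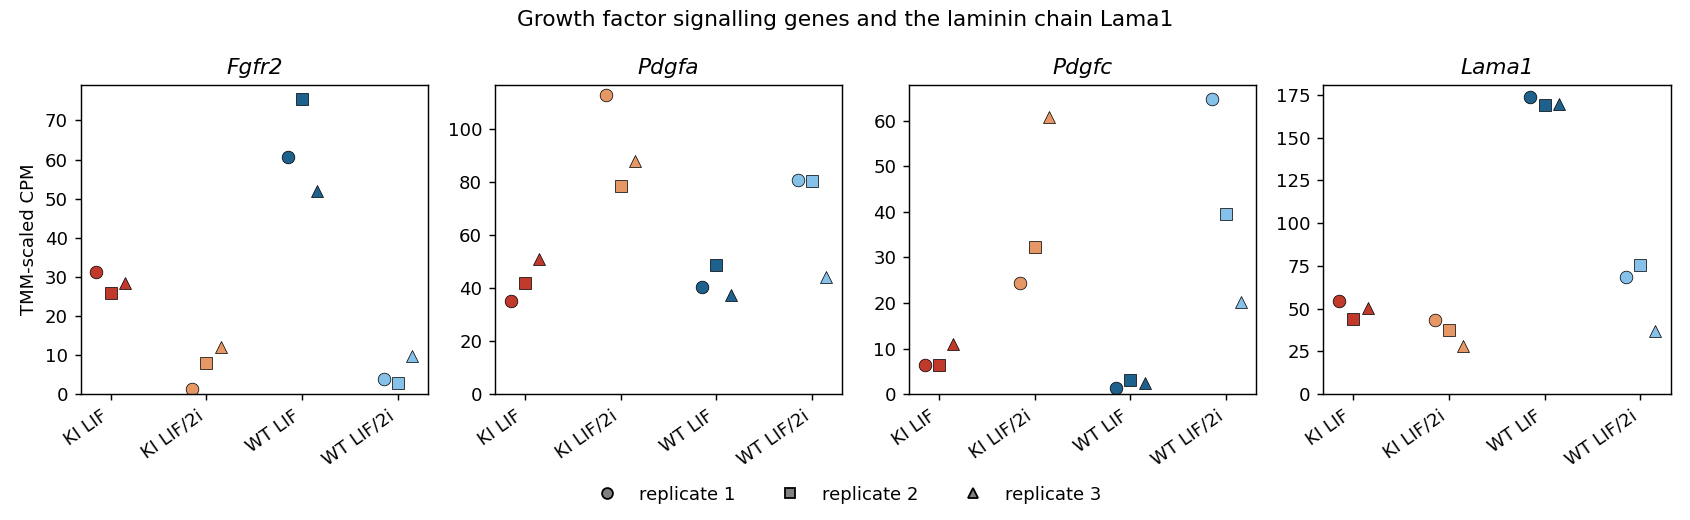
Fgfr2, Pdgfa, Pdgfc and Lama1 in every library, in TMM-scaled CPM from 0, with 1 panel per gene, the groups KI LIF, KI LIF/2i, WT LIF and WT LIF/2i from left to right and symbols for replicates 1 to 3. Fgfr2 is higher and Pdgfc lower in all LIF libraries than in all LIF/2i libraries, and Lama1 is highest in WT LIF, at 169 to 174 CPM.

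Of 17 genes for endocytic partners of the receptors, all tested, none was called between genotypes, where 0.144% of all genes were in LIF and 2.21% in LIF/2i. Their median log2 differences were -0.18 in LIF and 0.02 in LIF/2i. Between media, 3 were called lower in LIF and 0 higher in KI cells, where 5% of all genes were lower and 4.05% higher. In WT cells 2 were lower and 1 was higher, where 6.65% of all genes were lower and 6.3% higher. In LIF, Mesd, which encodes a folding chaperone of low density lipoprotein receptors, fell by 0.63 in KI cells (adjusted p = 0.0107) and fell by 0.58 in WT cells (adjusted p = 0.0206). In KI cells Lrpap1, which encodes the receptor-associated protein that chaperones megalin, fell by 1.02 (adjusted p = 0.00535), and Ocrl, which encodes an inositol phosphatase of endosomes, fell by 0.68 (adjusted p = 0.0354). In WT cells the clathrin light chain gene Cltb fell by 1.37 (adjusted p = 0.00704) and the chloride transporter gene Clcn5 rose by 1.71 (adjusted p = 0.00987). The calls of Cltb, Clcn5 and, in WT cells, Mesd were lost without WT LIF replicate 2 (0.0989, 0.144 and 0.123), and that of Mesd also without the averaged WT LIF sample (0.145) or WT LIF/2i replicate 1 (0.0606) or 2 (0.0641). The Ocrl call was lost without KI LIF replicate 1 (0.0628), 2 (0.131) or 3 (0.101) or KI LIF/2i replicate 2 (0.0650) or 3 (0.0927).

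Markers of other cells moved with the media as well. Of 12 trophectoderm markers 9 were tested. In LIF, 2 were called higher (Krt8 and Hand1) and 1 lower (Tead4) in KI cells, where 4.05% of all genes were higher and 5% lower. In WT cells 5 were called higher (Krt7, Krt8, Krt18, Hand1 and Esx1), where 6.3% of all genes were. The sum of the 12 markers ranged from 272 to 313 CPM in KI LIF and 194 to 290 CPM in KI LIF/2i, against 444 to 585 CPM in WT LIF and 207 to 251 CPM in WT LIF/2i. Of the 12 listed, Elf5 was at most 0.467 CPM and Tpbpa at most 0.156 CPM in any library, both picked after their values were seen. The Krt8 call in KI cells was kept in 8 of 20 alternatives and the Esx1 call in 11 of 19, the Tead4 call was lost without KI LIF replicate 2 (adjusted p = 0.0633) or 3 (0.0740), and the Krt7 call without WT LIF replicate 2 (0.0786). Of 12 fibroblast markers 9 were tested. In LIF, 3 were called higher in KI cells and 5 in WT cells, where 4.05% and 6.3% of all genes were. The sum of the 12 fibroblast markers ranged from 314 to 614 CPM in KI LIF and 128 to 482 CPM in KI LIF/2i, against 156 to 793 CPM in WT LIF and 121 to 387 CPM in WT LIF/2i. Lum, picked after its values were seen, was at most 0.156 CPM in any library. Col1a1, Col1a2 and Acta2 were called higher in LIF in both genotypes, the Col1a1 call in KI cells being kept in 14 of 20 alternatives. Col3a1 and Fbn1 were called higher in LIF in WT cells, calls kept in 16 and 15 of 19 alternatives. Neither list had a member called between genotypes, where 0.144% of all genes were in LIF and 2.21% in LIF/2i. The part of these cells in the medium and genotype differences of the members was not tested.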

How the data were processed

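The authors deposited whole-number counts, not normalized, for each gene and library. Per the file headers, they count reads in the coding sequence of a single transcript. Bowtie 1.3.0, UMI-tools 1.0.1 and cutadapt 3.4 appear in the submitters' processing notes, without roles. What build, annotation, counting tool and strand setting were used is not given in the sources used here. Transcripts were matched to GENCODE M21 (GRCm38) for lengths and places, 22155 of 22416 being found and 21766 with the same symbol.

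The filter was filterByExpr with a minimum count of 10. TMM factors were 0.938 to 1.05, and edgeR 4.0.16 in R 4.3.3 made the fit (robust quasi-likelihood, 1 mean per group over 11 samples, biological coefficient of variation 0.234). Each of 5 contrasts was tested two-sided and adjusted by Benjamini-Hochberg over 13229 genes, with a threshold of 0.05. The steps were also run on simulated counts with a coefficient of variation of 0.234 for every gene. Deviating libraries were not simulated, so that run does not show how the steps do on these data. SEs come from the F statistic, and ± values of CPM are SDs over the samples of a group. Floors cover counting error only.

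Alternatives were DESeq2 1.42.0, its size factors, library totals, no filter, 12 libraries, a replicate block, and single libraries left out. Groups share replicate numbers. Deviations from group means of same-numbered KI samples correlated across media at 0.524, 0.405 and 0.245. KI LIF replicate 3 also correlated with KI LIF/2i replicate 2, at 0.233, so a link by number is clearer for replicates 1 and 2 than for 3. Deviations within a group sum to 0, so these correlations are not independent. The labels do not state such a link. In the other comparisons at least 1 same-numbered pair was under 0.1. Replicates whose counts agreed within sampling noise were averaged.

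Members and lists were chosen with earlier results of these data known. Named genes were all members, called genes of the other lists, and the 5 genes of at least 5 CPM that correlate best with the mean of the tested members. Lum, Elf5, Tpbpa, Col4a1 and Cer1 were named after their values were seen. Ribosome profiling data and protein sequences were not used here.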

Additional observations from a re-analysis of the deposited data

Results flagged for a closer look

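Sox7 was lower in every KI sample than in every WT sample in LIF, and higher in every KI sample than in every WT sample in LIF/2i. The mean of KI LIF minus WT LIF was -0.607 CPM, and the mean of KI LIF/2i minus WT LIF/2i was 1.07 CPM. Sox7 did not pass the count filter, so the difference between the media was not tested in the fit used for the other genes. Without the filter, edgeR gave its genotype by medium interaction an adjusted p of 0.724 (unadjusted 0.00349). With WT LIF replicates 1 and 3 counted separately, the genotypes overlapped in LIF, at 0.704, 0.414 and 0.424 CPM in KI LIF against 1.46, 1.2 and 0.623 CPM in WT LIF.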

How the results depend on the processing

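Of 766 member fold changes under the alternatives, 717 kept their direction and side of the threshold, 25 newly passed it, 11 no longer did and 13 changed sign. Among called genes of the other lists 969 of 1107 kept their call and 138 lost it, none changing sign. Cubn and Lrp2 stayed higher in LIF than in LIF/2i in WT cells in all 19 alternatives, with adjusted p of at most 0.0229 and 0.0261.

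For KI to WT in LIF, members called were 2 rather than 0 with 12 libraries counted separately, in DESeq2 and with the replicate block over 12 libraries, and were 0 to 1 with a library left out. KI to WT in LIF/2i, they were 1 in DESeq2 and 0 to 1 with a library left out. Between media in KI cells, they were 0 with no filter, 1 with the replicate block within KI libraries, and 0 to 2 with a library left out, against 2. Between media in WT cells, they were 5 with 12 libraries, 5 with the replicate block, 4 in DESeq2 and 2 to 4 with a library left out, against 2. Other calls of members were not changed by the block.

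Sign changes came with a library left out in Dab2 (-1.33 to 0.63 for KI to WT in LIF/2i, and -0.34 to 1.61 between media in KI cells), Amn (-0.94 to 0.26) and Sox17 (-0.97 to 0.035) for KI to WT in LIF/2i, and the interaction of Gata6 (-0.25 to 0.55). The replicate block over 12 libraries turned Dab2 in LIF/2i to -0.17. The cause was not tested.

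Counts over all genes moved too. KI to WT in LIF, 19 genes became 142 with 12 libraries, 206 in DESeq2, 42 with no filter, 174 with the block and 1 to 53 with a library left out. KI to WT in LIF/2i, 293 became 522, 917 and 566 with 12 libraries, DESeq2 and the block, and 64 to 996. The 64 came without WT LIF/2i replicate 1 and the 996 without KI LIF/2i replicate 1. In KI media, 1197 became 2006 with the block within KI and 498 to 1337. In WT media, 1714 became 2737 with 12 libraries, 2856 with the block and 390 to 2167. The interaction, with 0, became 1 with 12 libraries, 22 in DESeq2, 2 with the block and 0 to 4. Leaving out the averaged WT LIF sample left that group with 1 sample, assumed to vary like the others. Depth limits Sox7, Foxa2 and Cubn in KI LIF/2i.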

Other observations

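The genes whose levels ran most like the mean of the 8 tested members, by Pearson correlation of log2 CPM over 11 samples among 10619 genes, were Parva (0.939), Nuak1 (0.935), Cln6 (0.926), Esx1 (0.915) and Supt5 (0.912). Parva, which encodes the focal adhesion protein α-parvin, averaged 10.2 CPM in KI LIF and 5.38 CPM in KI LIF/2i, against 20.4 CPM in WT LIF and 9.71 CPM in WT LIF/2i. Esx1, an X-linked homeobox gene of the placenta, averaged 32.5 CPM in KI LIF and 16.3 CPM in KI LIF/2i, against 87.9 CPM in WT LIF and 21.9 CPM in WT LIF/2i. The samples share their group differences, so these values describe likeness of pattern.

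Of 8 embryonic stem cell markers, 4 fell in LIF in each genotype, where 5% of all genes were called lower in KI cells and 6.65% in WT cells. They were Nanog, Tfcp2l1 and Zfp42 in both genotypes, with Esrrb in KI cells and Klf4 in WT cells. The Esrrb call was kept in 17 of 20 alternatives and the Klf4 call in 18 of 19. The Zfp42 call was kept in 18 of 20 in KI cells and 10 of 19 in WT cells. The median log2 difference of the 8 was -0.54 in KI cells and -0.55 in WT cells, where that of all genes was -0.03 in KI cells and 0.01 in WT cells. Nanog, which opposes Gata6 in the blastocyst, was at 294, 246 and 221 CPM in KI LIF and 566, 638 and 681 CPM in KI LIF/2i, against 331, 292 and 326 CPM in WT LIF and 462, 472 and 549 CPM in WT LIF/2i. In LIF it fell by 1.32 ± 0.14 in KI cells (edgeR adjusted p = 0.000426) and fell by 0.66 ± 0.15 in WT cells (adjusted p = 0.0164, and 0.155 without WT LIF replicate 2 or 0.0654 without the averaged WT LIF sample).

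Of 10 definitive endoderm and mesendoderm markers 5 were tested. Gsc fell by 1.74 in LIF in KI cells (adjusted p = 0.0273) and fell by 3.68 in WT cells (adjusted p = 0.00231), and Cer1 was at 0 in every library. Gsc was the 1 of 5 called in each genotype, where 5% of all genes were called lower in KI cells and 6.65% in WT cells. The KI call of Gsc was lost without KI LIF replicate 1 (0.0675), 2 (0.0598) or 3 (0.112) or KI LIF/2i replicate 2 (0.0803). Of 5 neural markers 4 were tested. Sox1 and Pax6 rose in LIF in KI cells, by 2.87 (adjusted p = 0.0165) and 3.35 (adjusted p = 0.0298), and Pax6 rose in WT cells by 4.38 (adjusted p = 0.0125). These were 2 of 4 in KI cells and 1 of 4 in WT cells, where 4.05% and 6.3% of all genes were called higher. The Sox1 call was lost with the replicate block within KI libraries (0.0510) and without KI LIF replicate 2 (0.0668) or 3 (0.0706). The Pax6 calls were kept in 15 of 20 alternatives in KI cells and 16 of 19 in WT cells, and each loss came with a library or the averaged WT LIF sample left out (0.0509 to 0.0832). Of 9 endothelial markers 4 were tested. Cldn5 fell by 2.39 in KI to WT in LIF/2i (adjusted p = 0.0348), a call lost without KI LIF/2i replicate 2 (0.0796) or 3 (0.103), WT LIF replicate 2 (0.0595), the averaged WT LIF sample (0.0595) or WT LIF/2i replicate 1 (0.0818), 2 (0.0676) or 3 (0.0764). Cldn5 also fell by 1.85 in LIF in WT cells (adjusted p = 0.0478), a call kept in 7 of 19 alternatives. In each of these 2 comparisons Cldn5 was the 1 of 4 called. The shares of all genes called lower were 1.24% for KI to WT in LIF/2i and 6.65% between media in WT cells.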
